A study of Drosophila melanogaster with 6 samples.

Results

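The genes described here are 9 regulators of maternal mRNA and of the germ plasm, pgc, gcl, cup, me31B, smg, BicC, brat, 4E-T and 4EHP. They were listed by name, with earlier results of these data known, and all 9 were found among the 13216 rows of the table. Total RNA, depleted of ribosomal RNA and including species down to 18 nt, had been sequenced in 6 libraries of ovaries, taken from 1 to 3 day old Drosophila melanogaster females. The 3 wild type libraries came from the white-eyed stock wBerlin. The 3 GCNA null libraries came from a stock whose Gcna gene had been disrupted by a CRISPR knock-in construct and which had then been crossed back to wBerlin for 10 generations. The product of Gcna is a nuclear protein of germ cells, related to proteases for proteins crosslinked to DNA. Females of both stocks were gathered at 0 to 2 days of age and given wet yeast for 24 hours, at 25 °C, and then dissected. Both groups are whole ovaries, a mixture of germline and somatic cells of all stages, so fewer cells of a type and less RNA per cell cannot be told apart. Whatever chromosome segments of the founder remained after the crosses differ between the stocks together with Gcna.

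The oocyte is transcriptionally quiet and lives on mRNA loaded by its nurse cells, much of which is stored untranslated until it has been localized or the egg has been activated. Repression works mainly at the cap and at the poly(A) tail. Cup and 4E-T bind the cap-binding factor eIF4E, 4EHP occupies the cap without recruiting ribosomes, and Me31B coats repressed mRNA in large particles. Smaug, Bicaudal-C and Brat bind chosen mRNAs, in the ovary or in the embryo, and bring in deadenylases or 4EHP. The mRNAs of pgc and gcl are themselves repressed in the oocyte and gathered in the germ plasm, where their products later set up the primordial germ cells.

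The 6 libraries held 38401723 to 55758180 counted reads, and each member had 4432 to 173989 reads in each library. Values below are read counts that the authors divided by 1 size factor per library, called normalized counts. GCNA null replicates 1 and 2 were nearly alike, with a chi-square of 1.74 per degree of freedom between their reads, against 29.9 to 112.7 for the other 5 pairs within a group. They were therefore counted as 1 sample, their mean, so that the groups hold 3 and 2 samples. This pair is called the merged null sample below. The targeted gene, listed as CG14814, had 18292 to 20676 normalized counts in wild type but 428 to 520 in GCNA null libraries, which goes with the labels. All 7 germline markers and all 8 follicle cell markers examined had reads in these ovaries. No label states that replicates are independent collections of flies, so the p-values reflect no more than the variation among these samples, possibly technical.

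In wild-type ovaries the members spanned a wide range of levels. Set against the length of all annotated exons, me31B, the DEAD-box helicase of repressed mRNA particles, stood highest at 65902 ± 3293 normalized counts per kb (SD, n = 3), place 33 among 9179 protein-coding rows. The mRNA of smg, which encodes the sequence-specific repressor and deadenylation factor Smaug, followed at 13438 ± 631 per kb, and that of BicC, a KH-domain protein that recruits the CCR4-NOT deadenylase, at 8907 ± 782 per kb. Levels then fell to 4845 ± 134 per kb for gcl, 4515 ± 49.4 for cup, 4166 ± 205 for pgc and 3415 ± 156 for 4E-T. The lowest were brat, a TRIM-NHL protein, at 2043 ± 117 per kb and 4EHP, the alternative cap-binding protein, at 879 ± 62.7 per kb. These last genes also have the longest annotated exons of the set, 12788 and 6418 bases, and exons that the ovary does not use would lower a value per length. Each member's lowest wild type library lay above the highest one of the next member in this order. The ranks of the first 7 were within the top 927 of the 9179 rows, while brat ranked 1832 and 4EHP 4356.

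**Figure D1:**
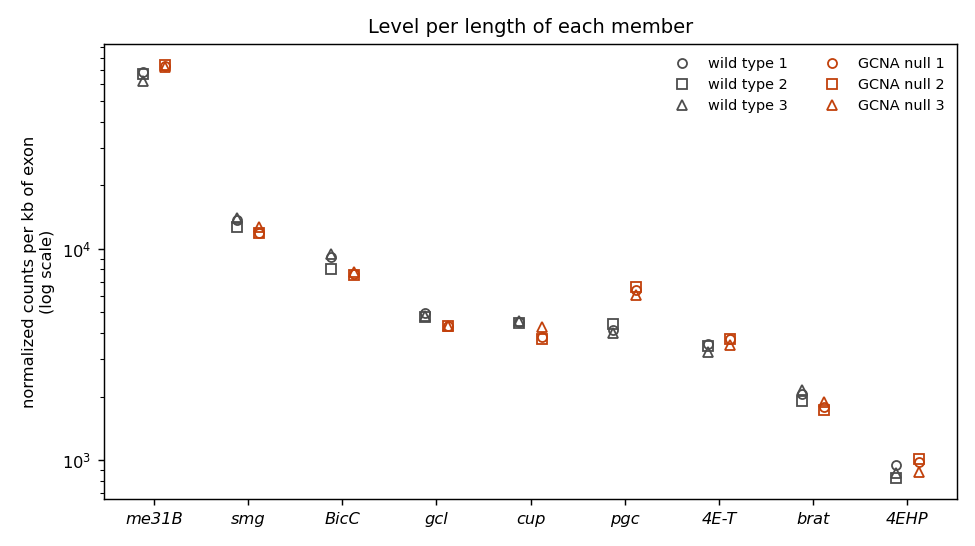
Level of each member per length. The vertical axis is normalized counts per kb of annotated exon on a log scale, and each symbol is 1 library, with GCNA null replicates 1 and 2 drawn separately. The members run from me31B at 65902 per kb to 4EHP at 879 per kb in wild type, and pgc changes place, from 4166 per kb in wild type to 6281 per kb in GCNA null ovaries.

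The genes lie on several chromosomes (BDGP6 annotation, the dm6 assembly named in the submitters' processing notes). On 2R, pgc spans 22330200 to 22332813 and gcl 8724258 to 8728999, both on the plus strand. On 2L, all on the plus strand, cup spans 6663664 to 6674780, me31B 10239341 to 10242172, BicC 16042047 to 16048757 and brat 19133816 to 19179758. On the minus strand, smg spans 8990317 to 8997989 on 3L, 4EHP (current symbol eIF4EHP) 24063077 to 24108960 on 3R and 4E-T 951542 to 958392 on chromosome 4. All are protein-coding.

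Several members share exons with another annotated gene, which bears on what their rows count. CG34310 covers all exons of cup on the same strand, and its row held 100.7% to 100.9% of the cup value in every library. CG45084 covers 94.8% of the exons of BicC on the same strand, and its row held 99.96% to 99.97% of the BicC value. Each of these pairs of rows is therefore taken as 1 measurement, and its genes cannot be told apart. On the opposite strand, T3dh, a transhydrogenase gene, overlaps 569 bases or 46.9% of the exons of pgc. The T3dh row held 111 to 142 normalized counts per library, and pgc had 34.1 to 68.8 times as many in the same library. Syx1A, a syntaxin gene, shares 447 bases or 6.96% of the exons of 4EHP, and the cell cycle gene cort shares 99 bases with cup on the other strand. Whether the counting used strand is not stated in the sources used here.

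Between the stocks, pgc alone passed the test. Of the 9 members 1 rose and none fell in GCNA null ovaries, against 4.25% of all 10132 tested rows called higher and 2.11% called lower, 6.37% together (limma, Benjamini-Hochberg adjusted p under 0.05 over all rows). At an unadjusted p under 0.05 there were 2 members, pgc and gcl, and 23.1% of all tested rows. edgeR and limma-voom on the recovered reads likewise called 1 member higher and 0 lower, beside 6.44% and 7.12% of all rows in either direction. Of the other members 3 had positive and 5 negative differences. The median difference of the 9 was -0.13 on the log2 scale, beside -0.00045 over all tested rows. In size the members' differences, with a median of 0.16, were near the median of 0.14 over all rows. Among the 2100 rows with a mean of at least 5000 normalized counts, a level that all members reach, the median size was 0.091 and 4.05% were called.

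**Figure D2:**
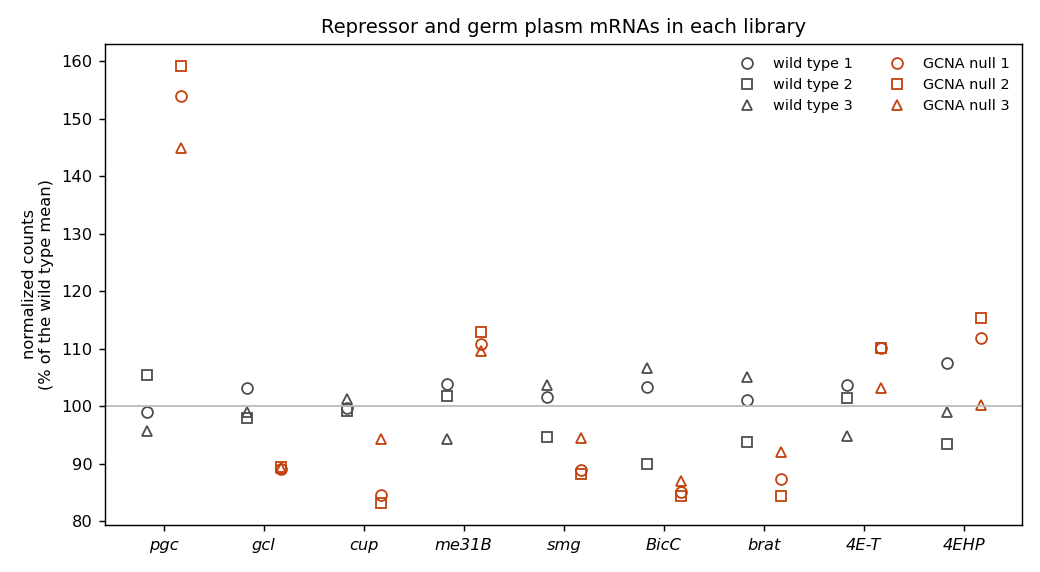
Each member in each library, as normalized counts in percent of its wild type mean. Grey symbols are the 3 wild type libraries and orange symbols the 3 GCNA null libraries, of which replicates 1 and 2 are nearly alike. Only for pgc are the GCNA null libraries far above the others, while 4E-T and 4EHP overlap between the groups.

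Among the germ plasm mRNAs, pgc rose and gcl did not pass the test. pgc encodes a small peptide that blocks the elongation kinase P-TEFb and so keeps RNA polymerase II silent in newly formed pole cells. It had 4997, 5320 and 4831 normalized counts in wild type, replicates 1 to 3 in order, and 7775, 8038 and 7320 in GCNA null, likewise in order. All GCNA null libraries were above all wild type libraries, and replicate 3 was the lowest of them. The means were 5049 ± 249 (n = 3) and 7613 ± 415 (n = 2), a log2 difference of 0.59 (SE 0.066, 95% interval 0.43 to 0.75, limma adjusted p = 0.0057), which is a 1.51-fold level. Of the 431 rows called higher, 337 had a larger difference. The call held in 19 of 20 alternative settings. It was lost without the merged null sample, where the difference was 0.54 (adjusted p = 0.056) and 1 GCNA null library was set against 3 of wild type. In that setting 0.928% of all rows were called higher.

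gcl encodes a nuclear envelope protein that acts as an adaptor of the Cullin-3 ubiquitin ligase and removes the Torso receptor from pole cells. Its values were 12538, 11901 and 12031 in wild type and 10832, 10871 and 10844 in GCNA null libraries. The groups did not overlap, and the null libraries were closely alike. The log2 difference was -0.16 (SE 0.055, 95% interval -0.30 to -0.032), or -10.7%, and did not pass the test (limma adjusted p = 0.14). As the single member called lower, it passed with DESeq2 on the same 5 samples (adjusted p = 0.019, where 5.35% of all rows were lower) and with limma on 6 separate samples (adjusted p = 0.033, where 7.39% were lower).

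The core of the cap-bound repressor particle did not pass the test. For cup, the eIF4E-binding partner of Bruno and Smaug that represses oskar and nanos mRNA, the libraries held 19372, 19270 and 19679 normalized counts in wild type and 16450, 16169 and 18333 in GCNA null. All null libraries were lower than all wild type libraries, with replicate 3 closest to wild type. The log2 difference was -0.17 (SE 0.071, 95% interval -0.34 to 0.0028, limma adjusted p = 0.22). It was -0.085 without the merged null sample and -0.25 without GCNA null replicate 3.

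me31B had 126204, 123857 and 114704 normalized counts in wild type and 134709, 137274 and 133211 in GCNA null libraries. Here the null libraries were all higher than all wild type libraries, of which replicate 3 was the lowest. The log2 difference was 0.15 (SE 0.14, 95% interval -0.18 to 0.47, limma adjusted p = 0.56), and it was 0.33 with quantile normalization, again not past the test (adjusted p = 0.38). The reads of me31B alone made up 0.252% to 0.283% of a wild type library and 0.289% to 0.312% of a GCNA null library.

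4E-T, an eIF4E-binding protein that acts with Me31B, had 13076, 12779 and 11965 normalized counts in wild type and 13893, 13888 and 13013 in GCNA null libraries. The groups overlapped, since null replicate 3 lay below wild type replicate 1. The log2 difference was 0.094 (SE 0.066, 95% interval -0.066 to 0.25, limma adjusted p = 0.45). 4EHP, which Brat and Bicoid use to block the cap of hunchback and caudal mRNA in the embryo, had 6072, 5272 and 5589 in wild type and 6312, 6511 and 5655 in GCNA null libraries. Its groups overlapped too, and its log2 difference was 0.096 (SE 0.084, 95% interval -0.11 to 0.30, limma adjusted p = 0.54). The difference was 0.0051 without the merged null sample.

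The sequence-specific repressors all had lower values in the GCNA null libraries, and none passed the test. smg had 81424, 75894 and 83080 normalized counts in wild type and 71202, 70726 and 75693 in GCNA null libraries. The groups did not overlap, but null replicate 3 and wild type replicate 2 were almost level. The log2 difference was -0.13 (SE 0.11, 95% interval -0.39 to 0.13, limma adjusted p = 0.53).

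BicC had 41836, 36467 and 43191 normalized counts in wild type and 34453, 34181 and 35241 in GCNA null libraries. The null libraries were below all wild type libraries, of which replicate 2 was well below the other pair. Its log2 difference of -0.22 was the most negative of the set (SE 0.098, 95% interval -0.45 to 0.020, limma adjusted p = 0.25). brat, which represses hunchback in the embryo together with Pumilio and Nanos, had 26427, 24500 and 27439 in wild type and 22840, 22069 and 24031 in GCNA null libraries. The groups again did not overlap, and wild type replicate 2 was the lowest of its group here as for smg and BicC. The log2 difference was -0.17 (SE 0.079, 95% interval -0.36 to 0.022, limma adjusted p = 0.26).

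Taken by separation alone, the libraries of the groups did not overlap for 7 of the 9 members, or 77.8%, beside 38.9% of all tested rows. This measure counts the near-identical null libraries as separate. Of all tested rows only 2100 reach a mean of 5000 normalized counts, as all members do. The shares of all rows given here were not computed for those alone. GCNA null replicate 3 was nearer to the wild type mean than the merged null sample for 8 members, gcl being the exception, and for 63.4% of all tested rows. With DESeq2 on 6 separate samples, which does so too and calls 23.1% of all tested rows, 7 of 9 members were called, 2 as higher (pgc and me31B, adjusted p = 0.013 for the latter) and 5 as lower (gcl, cup, smg, BicC and brat, adjusted p from 0.0011 to 0.044). Of the 8 members that did not pass, 7 had a 95% interval that included 0, and that of gcl lay below 0. The lowest bound was -0.45, for BicC, and the highest was 0.47, for me31B.

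**Figure D3:**
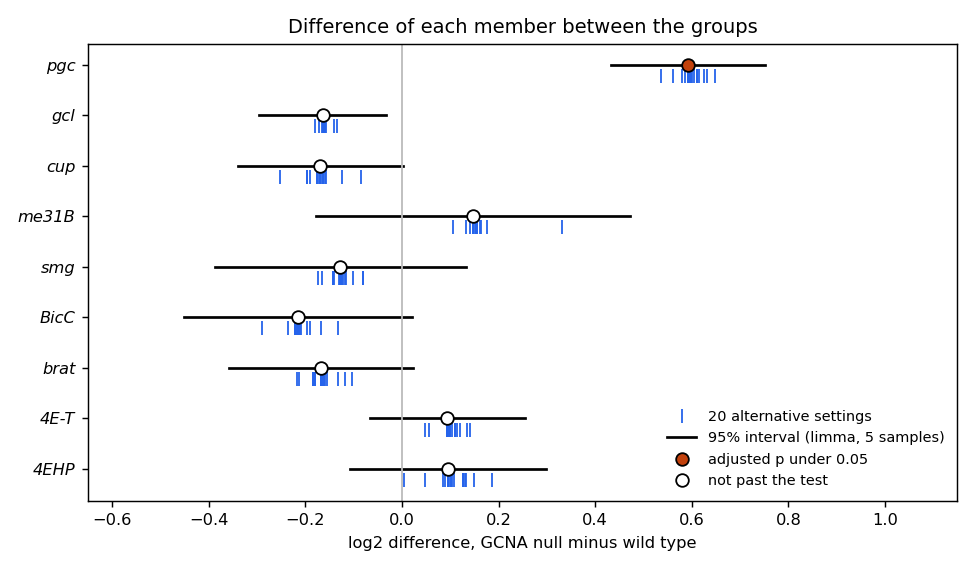
Log2 difference of each member, GCNA null minus wild type. Circles and black bars are the estimate and 95% interval from limma on 5 samples, and the small ticks are the estimates under 20 alternative settings. The interval of pgc, 0.43 to 0.75, lies above 0 and overlaps only that of me31B, -0.18 to 0.47, and no estimate of any member changed sign under an alternative.

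Ratios of members within a library do not depend on how the libraries were scaled. These are descriptions, chosen after the values were seen. The normalized counts of pgc relative to gcl were 0.399, 0.447 and 0.402 in wild type and 0.718, 0.739 and 0.675 in GCNA null replicates. Thus pgc gained on the other germ plasm gene in every null library, and the mean ratio was 68.8% higher. The ratio of me31B to cup was 6.51, 6.43 and 5.83 in wild type and 8.19, 8.49 and 7.27 in GCNA null libraries. The ratio of 4EHP to brat was 0.230, 0.215 and 0.204 in wild type and 0.276, 0.295 and 0.235 in GCNA null libraries. Both ratios were higher in every null library, and null replicate 3 was the nearest to wild type in each. The ratio of smg to brat, 3.03 to 3.10 in wild type and 3.12 to 3.20 in GCNA null libraries, was also higher in every null library, by 2.82% in the mean. The ratio of smg to BicC overlapped between the groups, at 1.92 to 2.08 and 2.07 to 2.15.

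In the level per length, the order of the members in GCNA null ovaries differed at pgc, which moved from place 6 to place 4 with 6281 ± 342 normalized counts per kb (n = 2), above gcl at 4323 ± 2.23 and cup at 4023 ± 332. The other members kept their relative order, although the libraries of cup and 4E-T, neighbours in it, overlapped in the GCNA null group. All members together took 0.674% to 0.744% of the reads in wild type and 0.702% to 0.727% in GCNA null libraries, ranges that overlap.

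Genes that work with these members mostly did not pass the test. In the list of cap-binding and eIF4E-binding proteins, 7 of 11 genes could be tested (median log2 difference 0.061). Of these 7 genes 2 had an unadjusted p under 0.05, beside 23.1% of all tested rows. DESeq2 on 5 samples called 2 higher and 0 lower, beside 7.45% and 5.35% of all rows. By limma 1 rose, none fell and 6 did not pass, beside 4.25% of all rows called higher and 2.11% called lower. The riser was Thor, the fly 4E-BP, an eIF4E-binding inhibitor under the control of insulin and TOR signalling. It had 684, 756 and 533 normalized counts in wild type and 1348, 1248 and 1260 in GCNA null libraries. All null libraries were higher than all wild type ones, and the log2 difference was 0.97 (SE 0.15, limma adjusted p = 0.017). The adjusted p was 0.056 without GCNA null replicate 3 and 0.12 without the merged null sample. eIF-4E itself, named here after its value was seen, had a log2 difference of -0.040 (limma adjusted p = 0.81).

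No gene among 20 partners in repressor particles passed by limma, edgeR or limma-voom. 4 of 20 had an unadjusted p under 0.05, beside 23.1% of all tested rows, and the median log2 difference was -0.099, with 15 of 20 negative. DESeq2 on 5 samples called 1 of them higher and 4 lower, beside 7.45% and 5.35% of all rows. tral, the Lsm-domain partner of Me31B and Cup, had 139473 ± 13127 normalized counts in wild type and 135823 ± 3370 without Gcna (log2 difference -0.034). Hrb27C, an hnRNP that binds oskar and gurken mRNA, had a log2 difference of 0.085. Of the 9 CCR4-NOT deadenylase genes 0 were called by limma, edgeR, limma-voom or by DESeq2 with 5 samples, and 1 had an unadjusted p under 0.05. Their median was 0.0011, with log2 differences of -0.045 for Cnot4 and 0.0011 for Not3, the subunit that BicC binds. Of 11 decapping and decay genes none passed with any of these tools, and none had an unadjusted p under 0.05 (median -0.034). LSm1, of the ring that binds deadenylated mRNA, had a log2 difference of -0.081.

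Of 14 genes of germ plasm assembly and germ granules 0 were called by limma, edgeR or limma-voom. At an unadjusted p under 0.05 there was 1, beside 23.1% of all tested rows. DESeq2 on 5 samples called 1 lower, beside 5.35% of all rows. The median was -0.098 and 12 of 14 were negative. The most abundant per length were Hsp83 (log2 difference -0.15), a chaperone mRNA that is protected in the germ plasm, and CycB (-0.11), whose mRNA is kept silent in pole cells by Nanos and Pumilio. Named after their values were seen, vas, the DEAD-box helicase of the germ granule, had a log2 difference of -0.34 (limma adjusted p = 0.10), osk, the organizer of the germ plasm, -0.13 and nos -0.094. None of the 14 genes of this list thus passed as higher alongside pgc. The 5 partners of Pgc and Gcl, among them Cul3 (-0.066) and tor, the receptor that Gcl removes (-0.012), did not pass with any of the tools above, had no unadjusted p under 0.05 and had a median of -0.066. Of 10 genes of egg activation and maternal mRNA clearance 9 did not pass and none rose (median -0.00022). The remaining 1 fell, beside 2.11% of all rows called lower. This was cort, an activator of the anaphase-promoting complex in female meiosis, with 3354, 3314 and 3389 normalized counts in wild type and 1344, 1418 and 1544 in GCNA null libraries (log2 difference -1.20, SE 0.067, limma adjusted p = 0.00050). Its groups were far apart, and it is the gene that shares 99 bases with cup.

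**Figure D4:**
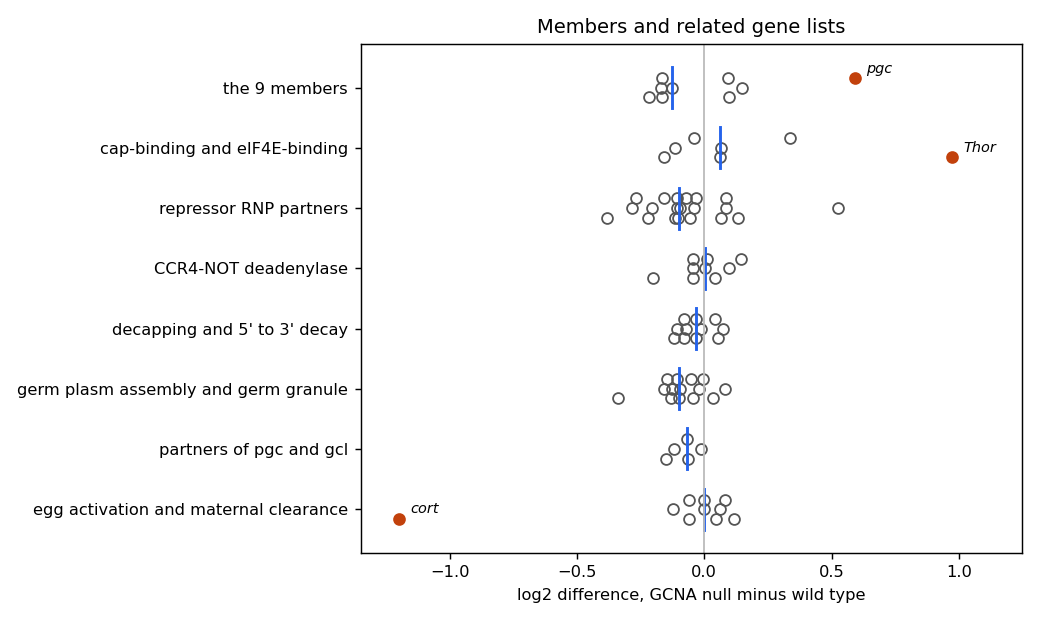
Log2 differences, GCNA null minus wild type, of the 9 members and of 7 lists of related genes. Each circle is 1 tested gene, filled where the adjusted p was under 0.05, and the blue bar is the median of the list. Apart from pgc, Thor (0.97) and cort (-1.20) passed, and the medians lie between -0.13 and 0.061.

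Taken over all members together, genes near them on the chromosome were called about as often as elsewhere. Within 100 kb of a member 226 other rows were tested, of which 15 or 6.64% passed, beside 6.37% of all rows. Beside 4.25% of all rows called higher and 2.11% called lower, around pgc 3 of 19 were higher and none lower. These were CG34207 and CR44756, with log2 differences of 2.64 and 2.61 and under 30 normalized counts on average in wild type, and Gp150, a transmembrane glycoprotein gene, at 0.36. Around cup the single change was cort, and around smg and BicC no row passed. The rows whose profile over the 6 libraries was most like that of pgc, among 8485 compared, were Tg, a transglutaminase gene, and CG8389. Their centred log2 values differed from those of pgc by a root mean square of 0.035 and 0.037. Tg had a log2 difference of 0.55 and CG8389 of 0.56, and both had a null replicate 3 slightly below the other null libraries, as pgc did. These likenesses follow from how the rows were picked and are no separate result.

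The summed levels of marker genes differed between libraries. The summed level of 9 chorion genes was 652314 to 893180 normalized counts in wild type, 294201 to 306842 in GCNA null replicates 1 and 2 and 878145 in replicate 3. That of 8 vitelline membrane genes was 464396 to 558275, 202417 to 215732 and 403088 in the same order. Summed germline markers were 164853 to 190470 in wild type and 155817 to 159409 in GCNA null libraries, and follicle cell markers 627888 to 754306 and 485559 to 749825. The follicle cell sum was mostly Yp1, Yp2 and Yp3, with wild type means of 291156, 296574 and 78814. Of the 8 follicle cell markers 4 had positive and 4 negative log2 differences. Muscle sheath markers were 21191 to 38177 and 19031 to 33427, and those of fat body and hemocytes 2314 to 5438 and 2969 to 5599. Markers of the nervous system summed to at most 457 and the 4 testis markers found to at most 206. Of all these markers peb and the testis gene aly passed, both as higher, with log2 differences of 0.35 and 4.56. Mean normalized counts of aly were 1.95 ± 1.88 in wild type and 60.2 ± 28.8 in GCNA null samples. Those of mia, another testis marker, were 160 ± 8.77 and 118 ± 2.03. No marker with a row was at 0 in all libraries. Any part of these marker differences in the values of the members was not tested.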

How the data were processed

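The deposited table gives 1 signal value per row and library, read counts that the authors divided by a size factor, as the values show. Every value was a whole multiple of its library's step, so whole reads were recovered for 100.0% of values (within 1e-06 of a whole number). The submitters' processing notes name CASAVA 1.8.2, STAR 2.5, DESeq2 and dm6. The sources used here do not give the annotation, the counter or its strand setting. The test was run in R 4.3.3 with limma 3.58.1, with moderated variances that follow a mean-variance trend and no block, on log2 of the normalized count plus 1, over rows with at least 10 in at least 3 libraries, with Benjamini-Hochberg adjustment over all rows. A log2 difference on this scale understates changes of scarce RNAs. Alternatives on the reads used edgeR 4.0.16, limma-voom and DESeq2 1.42.0. All were tested on simulated data whose changes were larger than those of the members. Recovery of changes of the members' size was therefore not tested. The members and gene lists were chosen with earlier results of these data known. Genes named are the members, up to 4 changed genes of each list or else its 2 most abundant per length, the 2 profiles nearest to pgc, and others marked as chosen later. Exon lengths are from the Ensembl BDGP6 annotation. Precision is limited by the number of samples rather than by counting.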

Additional observations from a re-analysis of the deposited data

How the results depend on the processing

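The numbers of rows called higher and lower, 431 and 214, were 755 and 542 with DESeq2, 935 and 749 with limma on 6 separate samples, and 1211 and 1126 with DESeq2 on 6 separate samples, a setting added after seeing the data. They ranged from 222 to 426 and from 67 to 277 when any 1 library was left out, and were 94 and 52 without the merged null sample. With a replicate block on 6 separate samples they were 640 and 477, and the members 1 higher and 0 lower. Same-numbered libraries did not deviate together (correlations -0.18, 0.073 and -0.094), so the numbers are not taken as pairs. The members called higher numbered 0 without the merged null sample and 2 with DESeq2 on 6 separate samples, and the members called lower 1 with DESeq2 and with limma on 6 separate samples and 5 with DESeq2 on 6 separate samples. With any 1 library left out they stayed at 1 higher and 0 lower. No member changed sign in 20 alternatives. Signs changed only for named genes with small differences, none past the test: tral (0.12 with quantile normalization, 0.0030 and 0.0095 without wild type replicate 1 or 3, -0.11 to 0.0095 over libraries left out), Cnot4 (0.013) and CycB (0.0080) with quantile normalization, Not3 (-0.015 without wild type replicate 3, -0.0016 without GCNA null replicate 2, -0.036 without the merged null sample, -0.015 to 0.038 over libraries left out), tor (0.027 with quantile normalization, 0.032 without wild type replicate 1, 0.0035 without GCNA null replicate 3, -0.056 to 0.032 over libraries left out) and Syx1A (-0.039 without wild type replicate 2, -0.058 without the merged null sample, -0.039 to 0.18 over libraries left out). The cause was not tested.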
